A study of Mus musculus with 7 samples.

Results

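The small nucleolar RNAs (snoRNAs) described here were chosen by detection alone: they are the 68 rows of the deposited gene table that had the snoRNA biotype, a symbol starting with Snord or Snora, and an FPKM value above 0 in at least 4 of 7 libraries, out of 132 rows with such a symbol and 46671 rows in all. Of the 68, 41 had a Snord symbol and belong to the box C/D class, and 27 had a Snora symbol and belong to the H/ACA class. RNA had been sequenced from the intestinal epithelium of BALB/C mice aged 8 weeks, with 4 libraries from mice whose MST3 gene (Stk24) was knocked out in intestinal epithelial cells (cKO) and 3 libraries from wild-type mice (Ctrl). The design text speaks of littermates that received AOM, a carcinogen, and DSS, an irritant of the bowel lining, but every sample in both groups is labelled as grown without drugs. No source used here names the promoter that drove the deletion or says whether each library came from a separate mouse. The tissue is labelled colorectum, while the summed level of 5 colon marker genes was 36.4 to 61.4 FPKM in cKO libraries and 26.3 to 49.7 FPKM in Ctrl libraries, and that of 6 small-intestinal marker genes was 16015 to 20001 FPKM in cKO libraries and 19271 to 34071 FPKM in Ctrl libraries.

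SnoRNAs are short non-coding RNAs that work in the nucleolus as guides for enzymes that modify ribosomal RNA. Box C/D snoRNAs pair with ribosomal RNA and direct ribose methylation by fibrillarin, and H/ACA snoRNAs direct the conversion of uridine to pseudouridine by dyskerin, while a few members of either class are needed for cutting the ribosomal RNA precursor. In mammals most snoRNAs lie in introns of a host gene, are released when the excised intron is debranched and trimmed, and are kept from decay by the core proteins that bind the boxes at their ends. Mature snoRNAs carry no poly(A) tail, and the design text calls the libraries mRNA-seq.

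The sequences of 9 of the 68 are printed to show these boxes. The first 3 belong to the members with the most reads of either class and to a member whose reads exceeded those of its host. They are followed by the 3 snoRNAs whose libraries did not overlap between the groups, by a near-identical pair in the same host, and by a member with 1 very high library. In box C/D snoRNAs the capitals mark a C box (ATGATGA or GTGATGA) near the 5′ end and a D box (CTGA) near the 3′ end, and in H/ACA snoRNAs they mark the ACA near the 3′ end. All are mouse sequences 5′ to 3′ from GENCODE M21 transcripts, matched by symbol, on the annotation's GRCm38 build, whereas coordinates given below are those of the deposited table on GRCm39.
Snord96a: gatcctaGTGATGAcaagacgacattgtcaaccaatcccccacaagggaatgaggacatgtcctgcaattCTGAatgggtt
Snora65: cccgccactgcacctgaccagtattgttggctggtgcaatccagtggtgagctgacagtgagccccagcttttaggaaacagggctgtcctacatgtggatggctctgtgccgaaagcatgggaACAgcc
Snord104: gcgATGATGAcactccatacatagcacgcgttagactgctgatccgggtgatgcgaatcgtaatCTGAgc
Snora28: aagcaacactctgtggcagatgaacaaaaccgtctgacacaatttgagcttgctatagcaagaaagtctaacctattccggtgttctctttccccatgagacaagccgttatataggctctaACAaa
Snord16a: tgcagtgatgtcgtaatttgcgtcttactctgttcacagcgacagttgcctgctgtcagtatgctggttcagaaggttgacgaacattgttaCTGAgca
Snora2b: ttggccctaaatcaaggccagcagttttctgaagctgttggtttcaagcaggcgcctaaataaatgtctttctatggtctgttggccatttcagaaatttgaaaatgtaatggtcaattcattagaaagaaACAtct
Snora73a: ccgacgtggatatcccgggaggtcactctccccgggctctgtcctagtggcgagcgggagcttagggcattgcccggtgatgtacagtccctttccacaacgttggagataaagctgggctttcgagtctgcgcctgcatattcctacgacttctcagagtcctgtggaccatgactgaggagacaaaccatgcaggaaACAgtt
Snora73b: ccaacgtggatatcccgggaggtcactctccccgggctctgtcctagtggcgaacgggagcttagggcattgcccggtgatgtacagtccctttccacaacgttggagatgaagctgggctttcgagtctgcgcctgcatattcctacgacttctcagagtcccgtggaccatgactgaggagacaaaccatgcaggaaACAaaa
Snord14e: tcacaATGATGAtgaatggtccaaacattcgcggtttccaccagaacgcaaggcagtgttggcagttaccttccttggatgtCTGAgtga

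The boxes matched the symbols in most members. A transcript of the same symbol was found for 40 of 41 box C/D and 25 of 27 H/ACA members. Both boxes, with the C box in the first 20 bases and the D box in the last 20, were found in 26 of 40 box C/D sequences (65%), in 0 of 25 H/ACA sequences and in 2 of 3792 other small RNA transcripts of 40 to 230 bases (0.0527%). ACA in the last 10 bases was found in 23 of 25 H/ACA sequences (92.0%), against 3 of 40 box C/D sequences (7.5%) and 554 of the 3792 others (14.6%). On the opposite strand both boxes were found in 0 box C/D and 0 H/ACA sequences, and ACA in 8 and 2. Snord16a held a D box and no C box of these exact letters. These are letter matches and not a test of function.

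The paralogs Snora73a and Snora73b shared 96.6% of 205 bases, and Snord14c and Snord14d shared 97.7% of 86 bases. Another snoRNA or related small RNA at least 95% identical existed for 10 of the 65 matched members and a fully identical one for 0, so the division of reads is uncertain for these 10. The length in the deposited table equalled the GENCODE length for 9 of 65 members.

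By GENCODE transcripts, 28 of the 65 matched members lay in an intron of every host transcript. A further 35 were intronic in some transcripts and overlapped an exon, such as that of a retained-intron transcript, in others. No host was annotated there for 2 members. The distance from the 3′ end of the snoRNA to the next exon had a median of 82 bases in the box C/D class, with quartiles of 69 and 101 bases (n = 39), and 29 of these 39 lay 50 to 100 bases upstream of that exon. In the H/ACA class the median was also 82 bases (n = 24), and 12 of 24 lay within that range. Reads that start in a snoRNA and reads of an unspliced or intron-retaining host transcript cover the same bases, and the deposited gene values cannot tell them apart.

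The libraries held 14659708 to 19659622 reads assigned to genes. Stk24 was read 390, 386, 421 and 370 times in cKO libraries, against 2827, 2455 and 2557 times in Ctrl libraries, and it was 2.42 log2 units lower in cKO (SE 0.12, limma adjusted p = 0.00043). Summed epithelial markers stood at 4162 to 6610 FPKM in cKO and 5104 to 5485 FPKM in Ctrl libraries, T cell markers at 220 to 544 FPKM in cKO and 339 to 836 FPKM in Ctrl libraries, and B and plasma cell markers at 28.3 to 132 FPKM in cKO and 14.5 to 39.0 FPKM in Ctrl libraries. Stromal and neuronal markers reached at most 1.47 FPKM in sum in any library. The part of cell composition in any snoRNA value was not tested, and in such bulk samples fewer cells of a type and less RNA per cell cannot be told apart.

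Values of the 68 snoRNAs rested on few reads. All of them together drew 3129 reads over the 7 libraries, or 0.00273% of all reads, with a median of 4 reads per snoRNA and library and 13.7% of values at 0. For a gene of 100 bases, 1 read was worth 0.515 to 0.719 FPKM depending on the library (FPKM, fragments scaled to gene length and library size). Snord96a and Snora65 alone held 18.2% of the member reads, and the 12 members with the most reads held 49.7%. In all, 50 members reached 20 reads summed over the libraries.

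The detection rule and the choice of symbols set which snoRNAs appear at all. Another 94 genes under 300 bases with the snoRNA biotype met the same detection rule under other symbols and are not members. Of the 132 rows with a Snord or Snora symbol, 40 had no read and 8 each were detected in 1, 2 and 3 libraries. These 64 are not members. All 17 rows of the Snord116 cluster, an imprinted group known for its expression in brain, had 0 reads. Among the members, 5 were detected in 4 libraries, 19 in 5, 12 in 6 and 32 in all 7. The rule can be met by the 4 cKO libraries alone and not by the 3 Ctrl libraries alone. No member was absent from every Ctrl library, 6 were detected in 1 Ctrl library, 19 in 2 and 43 in 3. Just inside the rule stood Snord68 with 4 reads, Snora2b with 9, Snord73a with 10, Snord65 with 14 and Snord37 with 16 reads in all. Just outside it stood Snord1b with 4 reads, Snord93, Snord110, Snord71 and Snora62 with 5 reads each, Snord43 with 7, and Snord64 and Snord70 with 8 reads each.

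The first comparison asked whether the summed reads of the 68 members differed between the genotypes. Summed over the 68 members, there were 28.5, 30.7, 27.9 and 21.6 RPM (the usual scaling of reads to the total of each library) in cKO libraries, against 18.97, 27.5 and 38.2 RPM in Ctrl libraries. The highest and the lowest library were both Ctrl libraries, and all 4 cKO libraries lay between them. The mean was 27.2 ± 3.87 RPM in cKO (SD, n = 4) and 28.2 ± 9.63 in Ctrl (SD, n = 3), a ratio of 0.963. Both classes lay close together in this respect, at 13.8 ± 1.72 RPM in cKO and 14.2 ± 5.59 in Ctrl for box C/D, and 13.3 ± 2.41 in cKO and 14.1 ± 4.05 in Ctrl for H/ACA.

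**Figure D1:**
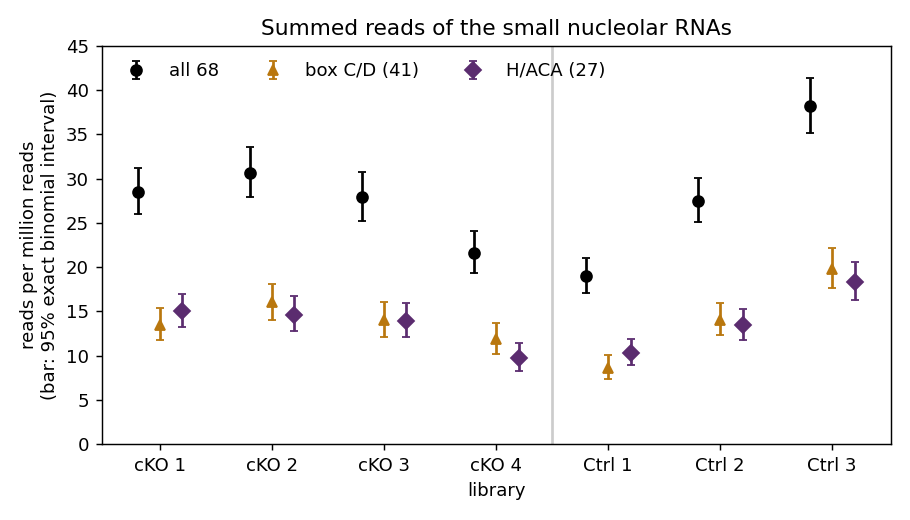
Summed reads of all 68 snoRNAs and of the 41 box C/D and 27 H/ACA members, in RPM (vertical axis) for each cKO and Ctrl library; bars are exact 95% binomial intervals of the counts. Ctrl replicate 1 at 18.97 and Ctrl replicate 3 at 38.2 RPM enclose the 4 cKO libraries, at 21.6 to 30.7.

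The libraries differed by more than counting error within each group. The exact 95% binomial interval of the sum ran from 17.1 to 21.0 RPM in Ctrl replicate 1 and from 35.2 to 41.4 in Ctrl replicate 3, and these intervals cover counting error only. Ctrl replicate 3 had the highest share of reads among all 7 libraries for 26 of the 68 members, while each other library was the highest for 3 to 11 members. The number of members detected was nevertheless smallest in Ctrl replicate 3, at 52, against 64, 64, 55 and 55 in cKO libraries and 56 and 65 in the other Ctrl libraries. A chi-square of each member's reads within the groups had a median of 2.57 per degree of freedom, above 1 for 64 members and above 5 for 7, where pure counting error gives about 1.

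Across the single snoRNAs, none passed the test. With limma on log2(FPKM + 0.5), fitted over the 13057 genes whose mean reached 0.5 FPKM, 0 of 68 members had an adjusted p under 0.05, where 0.0306% of all tested genes did. At an unadjusted p under 0.05 there were 7 members (10.3%), where 8.97% of all genes passed. Of these 7, 4 were higher in cKO (5.88%, against 4.24% of all genes) and 3 were lower (4.41%, against 4.73%). Among the 4 higher members, Snord16a and Snord42b were each detected in 4 cKO libraries and 1 Ctrl library. For them the cKO libraries alone met the detection rule, and how far the rule raised this share was not tested. In voom on the recovered reads, 0 of 68 were called, where 0.0155% of 19411 genes were, and 3 members (4.41%) had an unadjusted p under 0.05, where 7.31% of those genes did. Among the 14 members with at least 10 reads in 3 libraries voom also called 0, where 0.0139% of all genes were called. The shares among the members were thus near those of all genes.

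The direction was split. Of the members, 33 were higher in cKO (48.5%) and 35 were lower, while 48.7% of all tested genes were higher. The median log2 difference was -0.030 over the members and -0.0077 over all tested genes. It was -0.073 over 296 tested genes under 300 bases that met the same detection rule and were not members. Of these other short genes, 91 also had the snoRNA biotype under other symbols, so they are not a set without snoRNAs. Without Ctrl replicate 1 the member median was -0.30, and without Ctrl replicate 3 it was 0.16, so its sign depended on single libraries. The size of a member's difference, disregarding its sign, had a median of 0.41 log2 units, against 0.53 in the other short genes and 0.16 in all genes. Its standard error had a median of 0.62, against 0.60 in the other short genes and 0.18 in all genes.

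**Figure D2:**
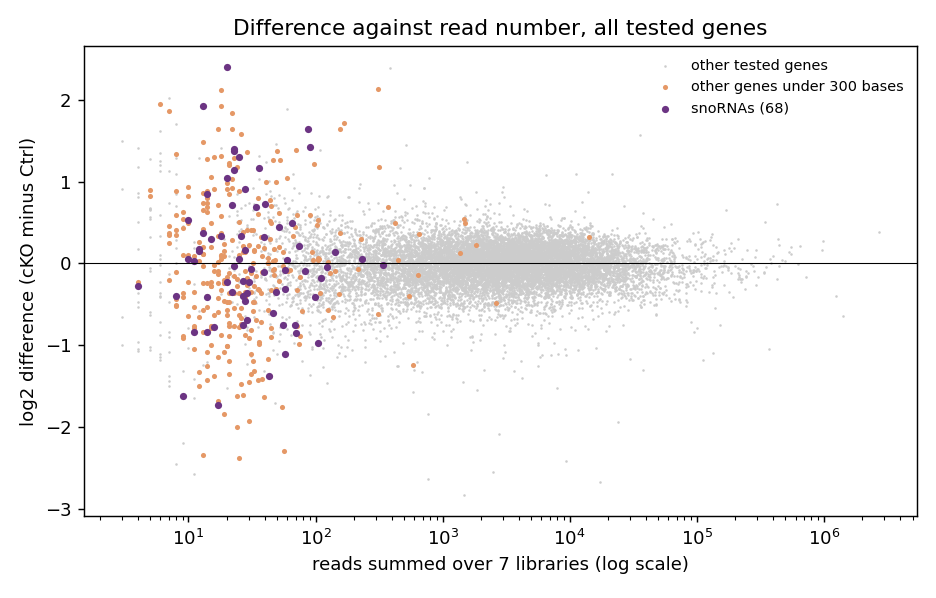
Log2 difference, cKO minus Ctrl, on the log2(FPKM + 0.5) scale (vertical axis) against the reads summed over 7 libraries (horizontal log axis) for the 13057 tested genes. The 68 snoRNAs (purple) and other genes under 300 bases (orange) fan out at low read numbers around a difference of 0, and genes with many reads (grey) lie closer to it. The orange genes include genes of snoRNA biotype under other symbols.

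The groups did not overlap for 3 members (4.41%), where 10.1% of all tested genes had groups without overlap. These were Snora28 and Snord16a, above in cKO, and Snora2b, below in cKO. Among all genes, 5.62% lay above in every cKO library and 4.51% below.

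Snora28 is an H/ACA snoRNA in Eif5, the gene of a translation initiation factor, at 111507380 to 111507501 of chromosome 12 (plus strand), and its human homologue guides pseudouridylation of small-subunit ribosomal RNA. It was read 17, 20, 20 and 12 times in cKO libraries, against 5, 12 and 4 times in Ctrl libraries, and stood at 7.84, 9.72, 11.3 and 7.07 FPKM in cKO and at 2.11, 5.86 and 2.03 FPKM in Ctrl. All cKO values were above all Ctrl values in FPKM, and the nearest pair was cKO replicate 4 and Ctrl replicate 2, with 12 reads each. The log2 difference was 1.43 (SE 0.33, 95% interval 0.67 to 2.19, limma adjusted p = 0.452), and 0.77 with a pseudocount of 5. Per total reads it was 2.77 times as frequent in cKO as in Ctrl, with an exact interval of 1.68 to 4.76 for counting error only.

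Snord16a is a box C/D snoRNA in Rpl4, the gene of a large-subunit ribosomal protein, at 64082714 to 64082804 of chromosome 9 (plus strand), and its human homologue guides methylation of small-subunit ribosomal RNA. It was read 5, 9, 3 and 2 times in cKO libraries, against 1, 0 and 0 times in Ctrl libraries. Its level was 3.20 ± 1.88 FPKM in cKO (SD, n = 4) and 0.189 ± 0.327 FPKM in Ctrl (SD, n = 3). The log2 difference was 2.40 (SE 0.42, limma adjusted p = 0.367). The size of the log2 difference depended on the pseudocount, at 3.97 with 0.1 and 0.64 with 5. The ratio of its reads per total reads was 16.03, with an exact counting interval of 2.55 to 666. A single Ctrl read sets the lower group, and the detection of Snord16a in 5 libraries, 4 of them cKO, is also what met the rule.

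Snora2b is an H/ACA snoRNA in Kansl2, the gene of a subunit of a histone acetyltransferase complex, at 98424229 to 98424340 of chromosome 15 (minus strand). It fell outside the rule by which members are named, for its low reads, and was chosen after its values were seen. It was read 0, 1, 0 and 0 times in cKO libraries, against 3, 2 and 3 times in Ctrl libraries. The log2 difference was -1.63 (SE 0.32, limma adjusted p = 0.388), on 9 reads in all. It was -3.19 with a pseudocount of 0.1 and -0.31 with 5. The ratio of reads per total reads was 0.105 with an exact counting interval of 0.00238 to 0.786.

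The other members at an unadjusted p under 0.05 overlapped between the groups. They were Snora17 in Snhg7 and Snord42b in Rpl23a on the higher side, and Snora31 in Tpt1 and Snora16a in Snhg12 on the lower side, each with a limma adjusted p of 0.524 to 0.542. Snora17 was read 9, 2, 6 and 2 times in cKO and 1, 3 and 0 times in Ctrl. Snord42b was read 1, 2, 3 and 5 times in cKO and 0, 2 and 0 times in Ctrl. Its detection in 5 libraries, 4 of them cKO, is also what met the rule. These members were also named after their values were seen, apart from Snora31.

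**Figure D3:**
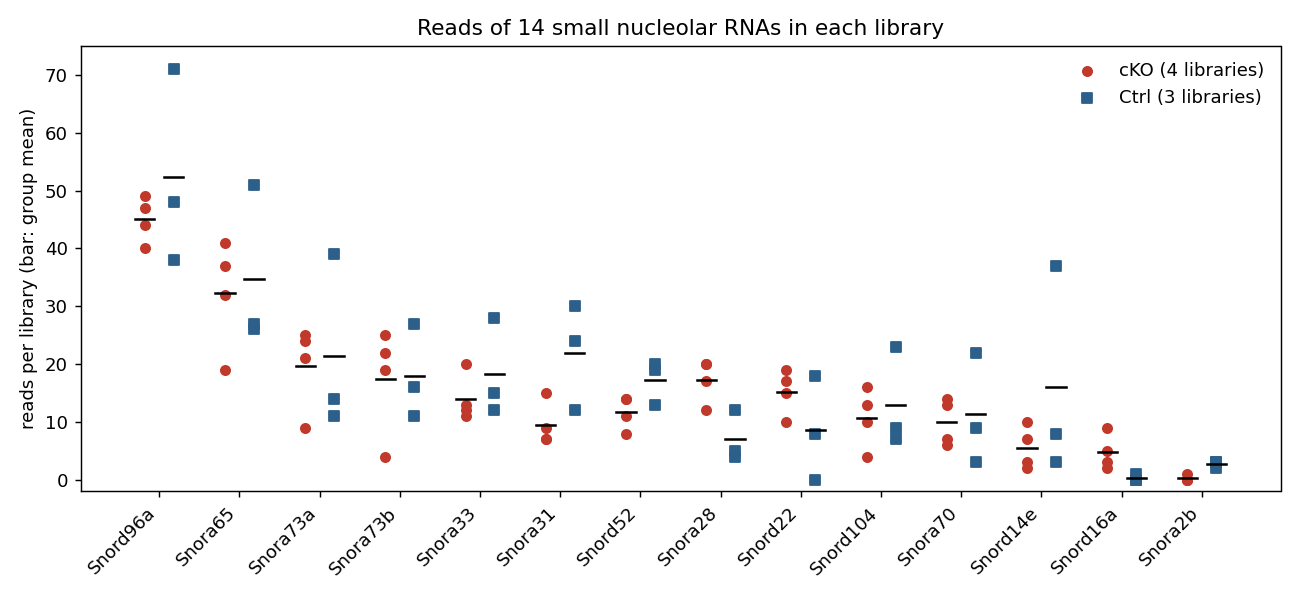
Reads per library (vertical axis) of 14 snoRNAs, those with the most reads and those whose groups did not overlap, with cKO libraries as circles left of Ctrl libraries as squares and bars at group means. For Snord96a the 4 cKO libraries lie between 40 and 49 reads inside the Ctrl range of 38 to 71, and for Snora28 the cKO libraries lie at 12 to 20 reads and the Ctrl libraries at 4 to 12.

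Among box C/D members with the most reads, Snord96a lies in Rack1, which encodes a scaffold protein of the small ribosomal subunit, at 48692860 to 48692936 of chromosome 11 (plus strand). It was read 40, 47, 49 and 44 times in cKO libraries, against 38, 48 and 71 times in Ctrl libraries. The cKO libraries lay inside the Ctrl range, at 37.6 ± 6.39 FPKM in cKO and 39.8 ± 15.9 FPKM in Ctrl, and the difference was -0.02 log2 units with a 95% interval of -0.63 to 0.58. The value was 0.06 after rescaling to TPM, which raised the median of all genes by 0.077, and 0.05 after quantile normalization, which raised it by 0.029.

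Snord52, in the long non-coding gene 1110038B12Rik on chromosome 17 from 35169926 to 35169984, was read 14, 11, 8 and 14 times in cKO and 20, 13 and 19 times in Ctrl libraries. Its groups overlapped, with a log2 difference of -0.41 (SE 0.22). Snord22, whose frog homologue is needed for making small-subunit ribosomal RNA, lies in Snhg1 on chromosome 19 from 8703230 to 8703355. It was read 10, 17, 19 and 15 times in cKO and 18, 8 and 0 times in Ctrl libraries. Ctrl replicate 3, the library highest in summed snoRNA reads, held no read of Snord22, and the log2 difference of 1.65 had a 95% interval of -0.27 to 3.56. It was 0.47 without that library, 2.46 without Ctrl replicate 1, and 0.63 with a pseudocount of 5. Snord104 lies on chromosome 11 from 106391817 to 106391889 and was read 13, 16, 4 and 10 times in cKO and 9, 7 and 23 times in Ctrl libraries. Both groups spread widely, and the log2 difference was -0.09 (SE 0.50).

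The Snord14 family works in ribosomal RNA processing as well as methylation, and 3 of its detected members lie in Hspa8, the gene of the constitutive chaperone HSC70, on chromosome 9. Snord14e, at 40716044 to 40716134, was read 3, 2, 10 and 7 times in cKO libraries, against 3, 8 and 37 times in Ctrl libraries. The high Ctrl mean rested on Ctrl replicate 3, and without that library the log2 difference was 0.09, against -0.86 (SE 0.84) with it. Snord14d showed the same high library, with 3, 0, 4 and 9 reads in cKO and 0, 9 and 21 reads in Ctrl. Snord14c was read 0, 2, 3 and 1 times in cKO and 0, 3 and 2 times in Ctrl libraries. In FPKM the host Hspa8 and Snord14e ranked the libraries of each group in the same order, with Ctrl replicate 3 the highest Ctrl library. Hspa8 varied far less, at 690, 567, 839 and 750 FPKM in cKO and 544, 651 and 708 FPKM in Ctrl libraries. Snord14e stood at 1.86, 1.30, 7.57 and 5.53 FPKM in cKO and 1.70, 5.24 and 25.1 FPKM in Ctrl libraries.

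Among H/ACA members with the most reads, Snora65 lies in Rpl12, the gene of a large-subunit ribosomal protein, at 32853313 to 32853430 of chromosome 2 (plus strand), and its human homologue guides pseudouridylation of large-subunit ribosomal RNA. It was read 32, 37, 19 and 41 times in cKO libraries, against 26, 51 and 27 times in Ctrl libraries. The groups overlapped throughout, at 17.5 ± 5.86 FPKM in cKO and 17.1 ± 7.63 FPKM in Ctrl, and the log2 difference was 0.06 with a 95% interval of -0.70 to 0.82. A second annotated small RNA is 98.5% identical to Snora65, so its reads may be divided between them.

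Snora73a and Snora73b, which are known from human cells to take part in early cutting of the ribosomal RNA precursor, lie next to each other in Snhg3 on chromosome 4. Snora73a, from 132080086 to 132080290 on the minus strand, was read 24, 21, 25 and 9 times in cKO and 11, 14 and 39 times in Ctrl libraries. Snora73b, from 132079633 to 132079837, was read 25, 19, 22 and 4 times in cKO and 16, 27 and 11 times in Ctrl libraries. Both were lowest within cKO in replicate 4, whereas within Ctrl the highest library was replicate 3 for Snora73a and replicate 2 for Snora73b. The 2 share 96.6% of 205 bases, so the division of reads between them, and with it this contrast, is uncertain. The log2 differences were 0.14 (SE 0.46) and -0.05 (SE 0.51).

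Snora31, in Tpt1, the gene of the translationally controlled tumour protein, lies on chromosome 14 from 76085363 to 76085474. It was read 9, 7, 15 and 7 times in cKO libraries, against 12, 24 and 30 times in Ctrl libraries. Only cKO replicate 3 reached above the lowest Ctrl library, and the log2 difference was -0.97 (SE 0.40, limma adjusted p = 0.542). Snora33, in Rps12 on chromosome 10 from 23661245 to 23661349, was read 12, 13, 20 and 11 times in cKO and 15, 12 and 28 times in Ctrl libraries. Snora70, in Rpl10 on chromosome X from 73316098 to 73316226, was read 14, 13, 6 and 7 times in cKO and 3, 22 and 9 times in Ctrl libraries. Neither separated the groups, with log2 differences of -0.18 (SE 0.34) for Snora33 and 0.21 (SE 0.55) for Snora70.

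The next comparison set each snoRNA against its host, the protein-coding or long non-coding gene that contains it on the same strand. A host was found for 67 members, in 51 genes, and Snord89 had none. More than 1 member lay in 12 of these hosts, which held 28 members, with 4 in Snhg12. The most common hosts were genes of ribosomal proteins, with 25 members in 22 genes. Another 8 members lay in 6 translation-related genes (Eef1b2, Eef2, Eif4a2, Eif5, Rack1 and Tpt1), 14 in 10 other protein-coding genes and 20 in 13 long non-coding genes.

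Host levels differed far more between the kinds of host than snoRNA levels did. Over the 66 members whose host had any read, the level of a snoRNA was at a median of 4.74% of its host's FPKM, and it was below 10% for 40 members. Of all 67 members with a host, 2 stood above it: Snord104, whose annotated host Gm36220 had 1 read in all, and Snora78, with 1, 2, 8 and 3 reads in cKO and 4, 2 and 7 reads in Ctrl libraries, whose host Snhg9 was listed at 0. In ribosomal protein genes the median of the 22 hosts stood at 526 FPKM and that of their snoRNAs at 2.92 FPKM, or 0.572% of the host for the median member. In translation-related genes the medians were 418 FPKM for hosts and 3.37 FPKM for snoRNAs. In other protein-coding genes they were 16.6 FPKM for hosts and 2.35 FPKM for snoRNAs. In the 12 long non-coding genes with any read they were 10.95 FPKM for hosts and 3.56 FPKM for snoRNAs, and the median member stood at 30.2% of its host. Thus median host levels of the classes ranged from 10.95 to 526 FPKM while median snoRNA levels ranged from 2.35 to 3.56 FPKM. The detection rule left out snoRNAs with the fewest reads and set no such floor for hosts. It therefore bounds the snoRNA levels from below, and with them the percentages of the host and the correlation that follows. How far it narrowed the snoRNA range was not tested. Across the members the Spearman correlation of the 2 levels was 0.037 (n = 67). Genes are not independent replicates, the points share libraries and in part hosts, and no test was made.

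**Figure D4:**
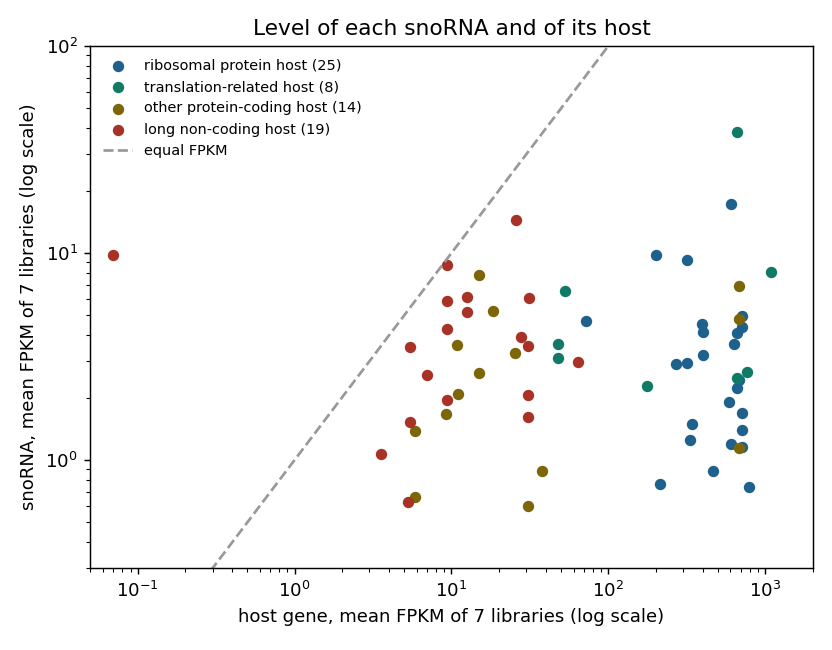
Mean FPKM over 7 libraries of each snoRNA (vertical log axis) against that of its host (horizontal log axis), coloured by the kind of host; the dashed line marks equal FPKM. Snora78, whose host was listed at 0 FPKM, and Snord89, which had no host, cannot be drawn; of the 66 points, only that of Snord104 lies above the line, and snoRNAs in ribosomal protein genes lie farthest to its right, at a median of 0.572% of the host.

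Relative to the host, most members again did not separate the groups. Reads of a member per host read were compared for the 49 members with a host and at least 20 reads. Of these, 28 had a higher ratio in cKO and 21 a lower one, with a median log2 difference of 0.075. With any 1 library left out this median ran from -0.20 to 0.36, so its sign depended on single libraries. Snord104 and Snora78 are among the 49, although their hosts had 1 read and 0 reads in all. Their ratios, and the test of Snord104 below, thus rest on the member's own reads and hardly on a host. The groups did not overlap for 1 of the 49, Snord16a, at 0.248, 0.516, 0.252 and 0.174 reads per 1000 Rpl4 reads in cKO, against 0.0497, 0 and 0 in Ctrl libraries. Since Snord16a was named for groups that did not overlap, and 19 of its 20 reads were in cKO libraries, this is a description with no test. Rpl4 itself stood at 598 ± 98.4 FPKM in cKO (SD, n = 4) and 566 ± 73.95 FPKM in Ctrl (SD, n = 3).

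Snora28 stood at 4.31, 5.43, 5.61 and 3.71 reads per 1000 Eif5 reads in cKO libraries, against 1.48, 3.71 and 1.32 in Ctrl libraries. Set against its host it overlapped at cKO replicate 4 and Ctrl replicate 2. The host Eif5 was itself at 57.9 ± 3.05 FPKM in cKO (SD, n = 4) and 46.5 ± 2.37 FPKM in Ctrl (SD, n = 3), with all cKO libraries above all Ctrl libraries and a log2 difference of 0.31 (SE 0.10, limma adjusted p = 0.511). For the 11 members named only for their reads, an exact 2-sided permutation test of the ratio over 35 splits, which can give no p below 0.0571, gave 0.114 for Snora31 and for Snord22 (0.629 after Benjamini-Hochberg adjustment over the 11), 0.286 for Snord14e and between 0.514 and 1 for the rest.

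**Figure D5:**
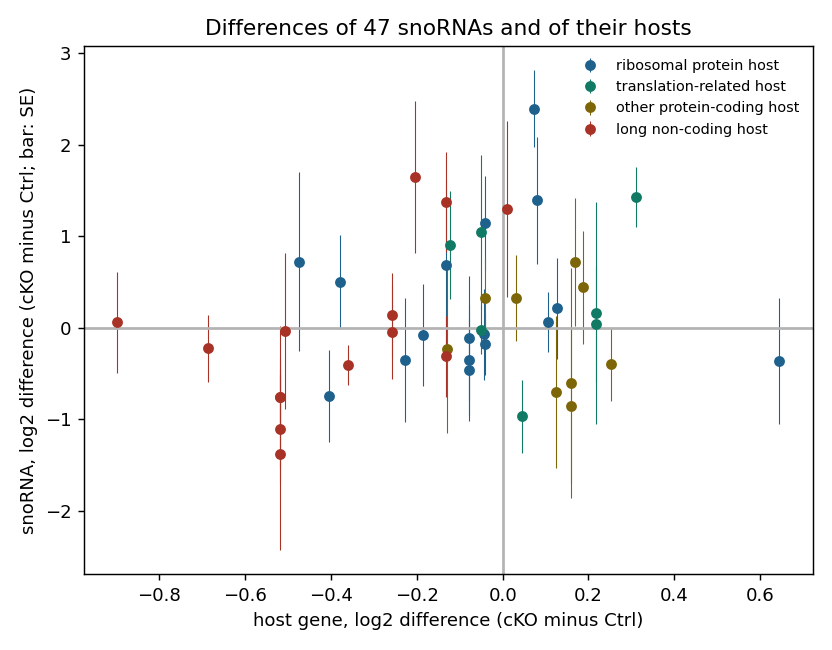
Log2 difference of each snoRNA (vertical axis, bar: SE) against that of its host (horizontal axis), cKO minus Ctrl, for 47 snoRNAs with at least 20 reads and a tested host. Host differences range from -0.90 to 0.64 and snoRNA differences from -1.38 to 2.40, with 30 of 47 points on the same side of 0 on both axes.

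Measured differences were smaller in hosts than in their snoRNAs, which had far fewer reads and larger standard errors. The median size of the difference was 0.13 log2 units over 49 tested hosts, against 0.41 over the snoRNAs. The median standard error was 0.20 in hosts and 0.62 in snoRNAs, and the median of summed reads was 24067 and 28. What part of the contrast reflects this precision was not tested. Among hosts 0 were called, where 0.0306% of all tested genes were, and the smallest limma adjusted p among hosts was 0.511. The direction of member and host was the same for 30 of 47 members. The Pearson correlation of the differences was 0.228 and the Spearman correlation 0.227, given as a description since member and host share the same libraries.

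The long non-coding hosts leaned to lower values in cKO, with 10 of 11 tested genes lower and a median log2 difference of -0.26. Gas5, Zfas1, Snhg1, Snhg3, Snhg7 and Snhg12 had their lowest value in cKO replicate 4, and the other tested long non-coding hosts did not. How far the lean rests on that library was not tested. Over the 51 hosts, 49 of them tested, the median was -0.078. In ribosomal protein hosts 15 of 22 genes were lower, with a median of -0.079. No long non-coding host passed the test. The 20 snoRNAs in these hosts had 7 higher and 13 lower members, with a median of -0.15, and 0 were called, where 0.0306% of all tested genes were called and 48.7% were higher. Zfas1, the host of Snord12, stood at 22.3 ± 7.66 FPKM in cKO (SD, n = 4) and 34.6 ± 3.98 FPKM in Ctrl (SD, n = 3). 2410006H16Rik, the host of Snord49a, Snord49b and Snord65, stood at 23.1 ± 9.31 FPKM in cKO (SD, n = 4) and 41.2 ± 3.13 FPKM in Ctrl (SD, n = 3). Both hosts lay below every Ctrl library in all cKO libraries, and both were chosen after their values were seen. For their snoRNAs the log2 differences were -0.23 (SE 0.37) for Snord12, 0.06 (SE 0.55) for Snord49a, 0.16 (SE 0.84) for Snord49b and -0.41 (SE 1.07) for Snord65, and no test among these values was made.

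Snhg12, the host with the most members, stood at 7.82 ± 1.63 FPKM in cKO and 11.6 ± 3.44 FPKM in Ctrl libraries. Its 4 snoRNAs all had lower means in cKO, with log2 differences of -0.75 for Snora16a, -1.11 for Snord99, -1.38 for Snora61 and -0.76 for Snora44. Snora16a was read 9, 7, 7 and 4 times in cKO and 17, 7 and 18 times in Ctrl libraries, and Snord99 6, 9, 6 and 1 times in cKO and 7, 12 and 16 times in Ctrl libraries. Snora61 was read 3, 6, 0 and 3 times in cKO and 12, 1 and 18 times in Ctrl libraries, and Snora44 7, 3, 1 and 0 times in cKO and 2, 2 and 12 times in Ctrl libraries. All 4 were highest in Ctrl replicate 3 and lay in the same gene, so they are not independent of each other.

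Genes of the proteins that bind, assemble, release and use snoRNAs were examined next, in 6 lists with 62 genes, of which 0 passed the test where 0.0306% of all genes did. The box C/D core proteins had 2 genes higher and 2 lower, with a median of -0.02 log2 units. Fbl, the methyltransferase fibrillarin, stood at 39.5 ± 10.95 FPKM in cKO and 49.4 ± 9.62 FPKM in Ctrl, and Nop58 at 23.1 ± 3.42 FPKM in cKO and 20.3 ± 2.47 FPKM in Ctrl. All 4 H/ACA core proteins had lower means in cKO on the log2 scale, with a median of -0.54. Nop10 stood at 26.6 ± 10.2 FPKM in cKO and 38.4 ± 4.46 FPKM in Ctrl, and Nhp2 at 30.9 ± 10.2 FPKM in cKO and 41.8 ± 8.54 FPKM in Ctrl, while Dkc1, the pseudouridine synthase, differed by -0.03 log2 units. None of the 4 separated the groups, and the smallest limma adjusted p among them was 0.613.

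Assembly factors had 4 genes higher and 6 lower, with a median of -0.13 log2 units. Pih1d1 stood at 5.20 ± 0.443 FPKM in cKO and 6.14 ± 0.935 FPKM in Ctrl, and Znhit3 at 5.49 ± 1.20 FPKM in cKO and 4.43 ± 1.07 FPKM in Ctrl. Factors that debranch introns and trim RNA ends had 7 genes higher and 8 lower, with a median of -0.02. Mtrex, a helicase that feeds RNA to the nuclear exosome, stood at 9.05 ± 0.784 FPKM in cKO and 7.36 ± 0.721 FPKM in Ctrl and did not overlap between the groups (log2 difference 0.28, limma adjusted p = 0.542). Exosc5, a subunit of the exosome, stood at 19.1 ± 2.21 FPKM in cKO and 23.3 ± 4.36 FPKM in Ctrl. Genes of ribosomal RNA synthesis and early processing had 7 higher and 11 lower, with a median of -0.03. Polr1d, a subunit of RNA polymerase I, stood at 25.05 ± 2.88 FPKM in cKO and 27.7 ± 1.53 FPKM in Ctrl, and Taf1b, a factor of its promoter complex, at 1.41 ± 0.420 FPKM in cKO and 1.05 ± 0.338 FPKM in Ctrl.

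The list of long non-coding host genes overlaps with the hosts above. In it, 1 of 11 genes had a log2 difference above 0 and 10 below 0, with Snhg6 as close to 0 as -0.0063, and 3 of the 11 lay below every Ctrl library, where 4.51% of all genes did. Snhg15 stood at 4.10 ± 0.679 FPKM in cKO (SD, n = 4) and 7.32 ± 1.58 FPKM in Ctrl (SD, n = 3), a log2 difference of -0.76 (SE 0.18, limma adjusted p = 0.452). Snhg20 stood at 10.96 ± 2.49 FPKM in cKO and 18.2 ± 2.54 FPKM in Ctrl, a log2 difference of -0.72 (limma adjusted p = 0.473). The third was Snhg8, at -0.85. Neither Snhg15, Snhg20 nor Snhg8 hosts any of the 68 snoRNAs. The same list gave 0 calls in limma, and its members were chosen with earlier results of these data known.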

How the data were processed

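HISAT2 is named in the submitters' processing notes. Its version, poly(A) selection, strand, counting program and annotation release are not stated in any source used. Per the file headers, the authors deposited a table of 46671 genes with FPKM for 7 libraries, gene lengths in bases and coordinates, whose chromosome accessions are those of GRCm39. Multiplied by gene length, 100% of FPKM values were whole multiples of the worth of 1 read in their library, within 0.01 of a whole number, and reads were recovered from this. The library sizes behind the deposited FPKM were 0.891 to 1.10 times the totals. Rows without a gene symbol numbered 340, with 0.196% of reads, and stayed in the table. Replicates are the libraries the labels number, and p-values measure the spread between them, which may be technical. Replicate numbers are those of the sample titles. The columns of the deposited table are numbered otherwise, with no number shared between cKO and Ctrl.

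Tested were the 13057 genes whose mean reached 0.5 FPKM, on log2(FPKM + 0.5), which understates changes of low genes, with limma 3.58.1 in R 4.3.3 (lmFit, eBayes with a trend, 2-sided, Benjamini-Hochberg, threshold 0.05). Intervals at 95% for reads are exact and cover counting error only. Ratios to the host used log2 of reads plus 0.5 and an exact permutation test over 35 splits, whose smallest 2-sided p is 0.0571. The fit was tested on simulated data, with changes planted in genes drawn from all tested genes. Those genes were not matched to the low reads of the members, so the simulation does not measure how the fit performs on snoRNAs. Sequences, boxes and exon distances came from GENCODE M21 transcripts by symbol. Scripts ran in Python 3.11.15 with pandas 2.3.3, scipy 1.17.1 and Biopython 1.88.

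The snoRNAs and gene lists were chosen with earlier results of these data known. Named were Stk24, the 12 members with the most reads, members with at least 20 reads whose groups did not overlap (up to 6 in each direction), members past the threshold under any planned setting, their hosts, the members at the edge of the detection rule, and the 2 genes of each list with the smallest p. Sequences to print were chosen after the values were seen. Alternatives were other pseudocounts, filters, scalings, voom on reads, the replicate number as a block, other detection rules, another host choice and leaving out each library. The count over all genes past the threshold was added to these after seeing the data.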

Additional observations from a re-analysis of the deposited data

Results flagged for a closer look

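In 2 of 40 groups examined, the highest library stood far from the others of its group, where chance gives about 1 in 20. Snora33 stood at 13.1 FPKM in cKO replicate 3, against 6.43 to 7.53 FPKM in the other cKO libraries. Snora31 stood at 9.22 FPKM in the same library, against 3.71 to 4.52 FPKM in the other cKO libraries. These levels rest on 20 reads of Snora33 and 15 reads of Snora31, and their cause was not tested.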

How the results depend on the processing

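No member and no host passed the threshold under any alternative run, and members tested numbered 14 in voom with at least 10 reads in 3 libraries. The median member difference was -0.03, and -0.30 to 0.16 with any 1 library left out, lowest without Ctrl replicate 1. The median of the other short genes was -0.07, 0.13 in voom with at least 10 reads, and -0.15 to 0.03 without 1 library. Over all genes, 4 passed, 1 with pseudocounts of 0.1 or 5, without a filter or with a mean of at least 1 FPKM, 2 in voom with at least 10 reads, and 1 to 7 without 1 library. The median of all genes was 0.070 after rescaling to TPM, against -0.0077 on the deposited scale.

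The replicate numbers, taken from the sample titles, did not pair the libraries. Deviations of same-numbered libraries correlated at 0.115, -0.0872 and -0.129, and 2 of 6 libraries correlated best with their own number. With the replicate number as a block, which leaves cKO replicate 4 without a partner, 0 genes passed, and Stk24 differed by -2.45 with a limma adjusted p of 0.137.

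Some differences close to 0 changed their sign. Rescaling to TPM raised the median of all genes by 0.077, about as much as it moved the values named here; the cause of the other changes was not tested. Snord96a was at 0.064 with TPM and 0.045 after quantile normalization, Rack1 at 0.038 with TPM and 0.061 after quantile normalization, and Rps12 at 0.046 with TPM and 0.097 after quantile normalization. Snora73b was at 0.013 with a pseudocount of 5 and 0.041 with TPM. With the replicate block Snora65 was at -0.13, Snora73b at 0.43 and Rack1 at 0.029. Without 1 library the ranges were -0.30 to 0.27 for Snord96a, -0.18 to 0.39 for Snora65, -0.26 to 0.69 for Snora73a, -0.28 to 0.43 for Snora73b, -0.40 to 0.21 for Snora33, -0.39 to 0.45 for Snord104, -0.48 to 0.85 for Snora70, -1.68 to 0.094 for Snord14e, -0.18 to 0.079 for Rack1, -0.20 to 0.20 for Rps12, -0.031 to 0.14 for Tpt1, -0.041 to 0.30 for Rpl10 and -0.016 to 0.18 for Rpl4. Members had a median of 4 reads per library and a median SE of 0.62, against a median SE of 0.20 in the hosts. Libraries of a group differed beyond counting error, and what set the precision was not tested.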
